A study of Homo sapiens with 12 samples.

Results

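The genes described here are the solute carriers of MOLM-13 cells other than the classical amino acid and nucleoside carriers. They were taken as every gene symbol that starts with SLC or SLCO and a family number, and were chosen by a measured value, a mean of at least 1 CPM (counts scaled to a common library total) over all 12 libraries. Of 57353 gene names in the table, 486 had such a symbol. Set aside were 23 hyphenated names (antisense and read-through transcripts) and 11 named amino acid and nucleoside carriers. Of the rest, 180 reached this level: 38 of family SLC25, listed here as mitochondrial by family number, and 142 others. The rule uses the mean over all groups and no contrast, although the set was proposed with earlier results of these data known, and all 180 were among the 12998 genes tested. Some members reach the limit only through groups in which they are high. SLC2A11 and SLC2A6 do so through RPMI with quizartinib (their mean over the other 9 libraries was 0.730 and 0.854 CPM), SLC2A14 and SLC26A11 through the quizartinib libraries of both media (0.853 and 0.880 CPM over the vehicle libraries), and SLC11A1 through hBMSC-CM (0.487 CPM over the RPMI libraries). A difference in favour of those groups was built into the choice of these 5, and their values in such comparisons are given below as a description with no p. Just inside the limit were SLC2A11 and SLC26A11, with mean CPM of 1.08 and 1.43, and just outside it were SLCO4C1 and SLC26A4, at 0.882 and 0.935. The name of the set holds only in part, because 20 members still have the family number of amino acid or peptide carriers and 2 that of nucleoside carriers. The symbols of 6 members name no carrier: the regulators and adaptors SLC2A4RG, SLC4A1AP and SLC9A3R1, the neighbour gene SLC7A6OS, and the pseudogenes SLC7A5P1 and SLC9A7P1. These 6 are counted in the role lists below, which follow the family number in the symbol. The name of a list therefore need not fit each gene in it.

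MOLM-13 is a human acute myeloid leukemia line with an internal tandem duplication in FLT3 (FLT3-ITD), labelled wild type in genotype. All 4 groups came from this line, with 3 libraries each: cells kept for 15 hr in RPMI with vehicle, in RPMI with 3 nM quizartinib, in hBMSC-CM with vehicle, or in hBMSC-CM with 3 nM quizartinib. Quizartinib (AC220) inhibits the FLT3 kinase, and hBMSC-CM is RPMI mixed with medium conditioned by HS-5, an established human bone marrow stromal line. As models, both media rest on 1 leukemia line and 1 stromal line, and the conditioned medium differs from RPMI in any nutrient the stromal cells used up or released as well as in what they secreted. The study's checklist calls its replicates biological, and the labels number them without saying how they were grown, so the p-values measure the spread between these libraries.

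Solute carriers are membrane proteins that move small molecules by facilitated diffusion, exchange or cotransport with ions. Families are numbered by sequence, and most carry one class of substrate: SLC2 sugars, SLC16 lactate and other monocarboxylates, SLC30 and SLC39 zinc, SLC35 nucleotide sugars into the Golgi, SLC25 metabolites across the inner mitochondrial membrane. In leukemia cells they matter for glucose uptake and lactate release, and some admit drugs, such as the reduced folate carrier SLC19A1, which takes up methotrexate.

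Each library held between 19966546 and 31546104 counted reads, so that 3 counts correspond to between 0.0951 and 0.150 CPM. Of 10 myeloid markers, 9 had at least 1 CPM on average, led by LYZ, PTPRC and CEBPA, while CD34 was near 0. Stromal genes summed to at most 5.38 CPM in any group, nearly all of it COL1A1 in RPMI with quizartinib (4.76 CPM), and COL3A1, DCN, LUM and THY1 had no read at all. No lymphocyte or erythroid marker reached 1 CPM. Within groups, hBMSC-CM with quizartinib replicate 1 stood apart, with a chi-square per gene of 9.80 and 9.45 against replicates 2 and 3, which differed from each other by 3.16, and in hBMSC-CM with vehicle replicate 3 did, with 10.49 and 6.80 against replicates 1 and 2, which differed by 3.74. Without that quizartinib library, 50 members were called higher and 68 lower with the drug in hBMSC-CM, in place of 53 and 71, and without vehicle replicate 3 the counts were 51 and 72. CPM values below are scaled by TMM (trimmed mean of M values), and changes are log2 fold changes from edgeR's quasi-likelihood test, called at an adjusted p under 0.05 over all 12998 genes. CPM is a share of all counted RNA, so a change in the RNA content of the cells cannot be seen in it. Fewer cells of a type cannot be told apart from less RNA per cell. In a separate experiment on this line, the study reported reduced RNA levels with quizartinib, in whole lysates and more so in heavy polysomes. The annotated spans of 67 members overlap another protein-coding gene, among them those of SLC16A3, SLC16A6, SLC19A1, SLC20A2, SLC27A2, SLC37A4, SLC39A7, SLC48A1 and SLC52A2, and how reads in shared bases were assigned is not given in the sources used here.

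Quizartinib in RPMI moved most of these genes. The deepest falls were at the organic anion carrier SLCO4A1, the zinc importer SLC39A14, the monocarboxylate carrier SLC16A6, the vesicular nucleotide carrier SLC17A9 and SLC43A3. The largest increases were at the glucose carrier genes SLC2A14, SLC2A6 and SLC2A11 (all among those 5), the chloride-bicarbonate exchanger SLC4A3 and the myo-inositol carrier SLC5A3. Of the 180 members, 73 were called higher, where 40.1% of all genes tested were, and 80 were called lower, where 39.2% were. The members' shares in each direction were thus near those of all genes, but changes of at least 2-fold were more common: 24 members rose (SLC2A6, SLC2A11 and SLC2A14 among them) and 33 fell by that much, against 9.63% and 11.8% of all genes. In 157 members, 87.2%, the 3 quizartinib libraries did not overlap the 3 vehicle libraries, as in 81.1% of all genes. The median log2 fold change of the members was -0.07, and without TMM, with library size alone, it was 0.02. Of the called members 47.7% were higher, against 52.6% with library size alone and 39.9% without the filter on low counts.

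**Figure D1:**
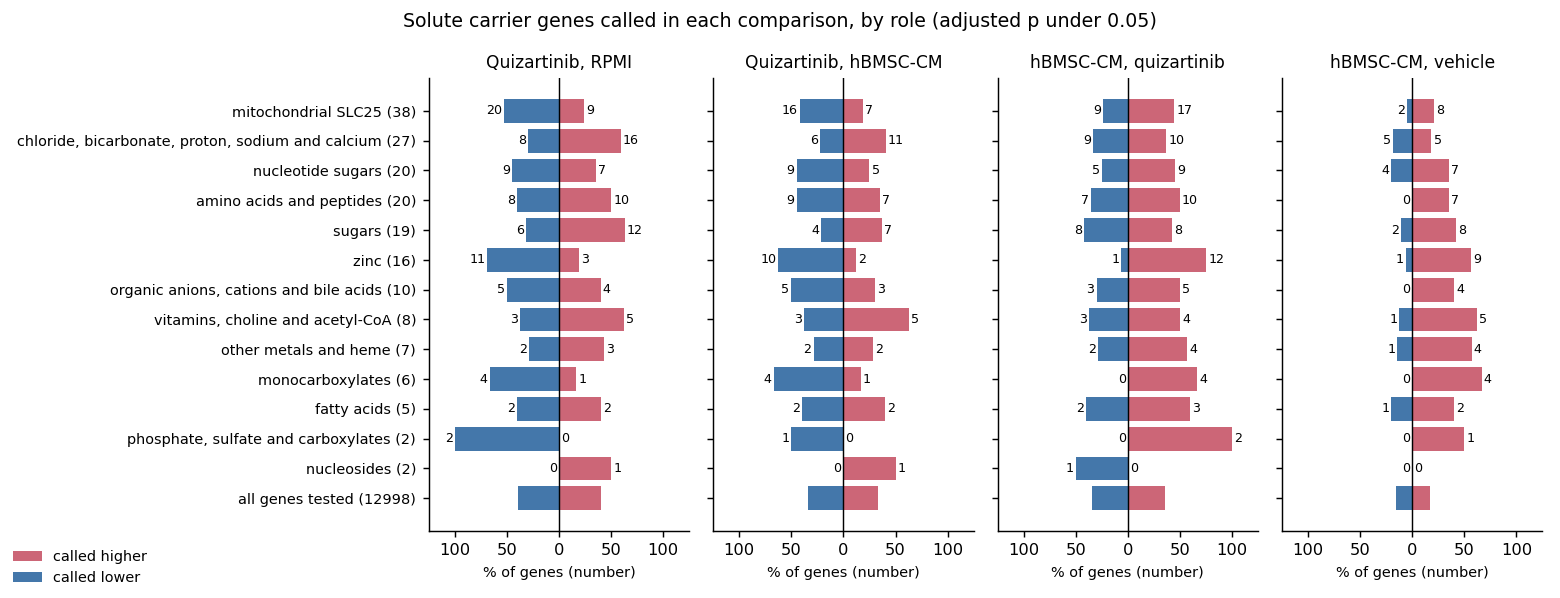
Share of the genes in each role list called higher (red, to the right) or lower (blue, to the left) at an adjusted p under 0.05, in percent of the list, for the drug comparison in each medium and the medium comparison with and without drug. Numbers beside the bars count genes, list sizes stand in brackets, and the bottom bar is all 12998 genes tested: zinc and monocarboxylate carriers lie mostly to the left with quizartinib and to the right with hBMSC-CM.

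The RefSeq promoter table (GRCh38.p14, 250 bases before to 50 after each gene's start) held 143 of the 180 members. It was searched on both strands for the E-box CACGTG, a palindrome bound by MYC and other helix-loop-helix factors, and for the core of the metal response element, TGCACNC or TGCGCNC, bound by the zinc-sensing factor MTF1. The E-box and the metal core can share the letters TG at their ends, so their matches may overlap. The E-box stood in 17 member promoters, 11.9%, against 7.43% of all 27305 promoters and 10.7% of those of tested genes. Of the 33 members that fell at least 2-fold in RPMI, 24 had a promoter in the table, and 4 of these 24 held it. SLCO4A1, SLC39A14, SLC16A6, SLC17A9 and SLC43A3, the deepest falls, had none in the table and were not searched. Of the promoters of members that rose at least 2-fold, 0 of 20 held it. The metal core was in 50 of the 143 member promoters, against 29.3% of all promoters and 39.2% of those of tested genes, and in 4 of 14 zinc carriers.

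The 250 bases before the start are shown for the 4 genes with an E-box among the 24 strongly lowered ones searched. They let the motif be seen in its setting. SLC30A1, the zinc exporter that rose, is shown as well. Capitals mark the E-box in SLC20A1 (chr2:112645689-112645938, plus strand), SLC38A5 (chrX:48470261-48470510, minus strand), SLC22A4 (chr5:132294144-132294393, plus strand) and SLC25A33 (chr1:9539215-9539464, plus strand), and the metal core, read on the opposite strand, in SLC30A1 (chr1:211579162-211579411, minus strand).
SLC20A1: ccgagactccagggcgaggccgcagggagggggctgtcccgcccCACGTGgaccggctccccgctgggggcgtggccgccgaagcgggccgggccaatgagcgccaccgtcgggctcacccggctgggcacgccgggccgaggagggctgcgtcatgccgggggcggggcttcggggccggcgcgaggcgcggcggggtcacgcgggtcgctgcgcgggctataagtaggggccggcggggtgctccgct
SLC38A5: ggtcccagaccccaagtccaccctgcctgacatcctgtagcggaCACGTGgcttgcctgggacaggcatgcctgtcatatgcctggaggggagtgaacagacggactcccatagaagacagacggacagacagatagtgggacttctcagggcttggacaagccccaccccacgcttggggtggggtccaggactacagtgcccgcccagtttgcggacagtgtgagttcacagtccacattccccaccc
SLC22A4: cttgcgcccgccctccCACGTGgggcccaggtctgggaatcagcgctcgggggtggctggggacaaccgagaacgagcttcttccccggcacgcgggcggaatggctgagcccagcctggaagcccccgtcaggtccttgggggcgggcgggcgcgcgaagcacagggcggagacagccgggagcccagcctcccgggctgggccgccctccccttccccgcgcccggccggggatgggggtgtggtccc
SLC25A33: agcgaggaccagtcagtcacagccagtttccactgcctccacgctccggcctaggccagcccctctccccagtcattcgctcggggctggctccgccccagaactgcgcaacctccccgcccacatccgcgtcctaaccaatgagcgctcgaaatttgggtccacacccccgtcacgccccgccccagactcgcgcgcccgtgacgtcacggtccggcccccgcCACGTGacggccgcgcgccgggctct
SLC30A1: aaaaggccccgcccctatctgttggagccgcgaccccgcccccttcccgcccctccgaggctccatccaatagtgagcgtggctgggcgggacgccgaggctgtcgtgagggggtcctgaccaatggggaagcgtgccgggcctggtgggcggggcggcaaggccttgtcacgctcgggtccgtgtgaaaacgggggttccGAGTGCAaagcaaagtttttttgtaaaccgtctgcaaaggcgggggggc
The E-box began 206 bases before the start in both SLC20A1 and SLC38A5, 234 before it in SLC22A4 and 26 before it in SLC25A33. In SLC30A1 the metal core shown began 49 bases before the start, and a second copy lay just after the start, outside the bases shown. A match is a stretch of letters, and no binding was measured.

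Among the carriers of organic anions, cations and bile acids, 5 of 10 fell with quizartinib in RPMI and 4 rose, near the 39.2% and 40.1% of all genes, and 4 and 4 with library size alone in place of TMM. SLCO4A1, at chr20:62642503-62685785 in GRCh38, encodes a polypeptide that takes up organic anions such as thyroid hormone. Its levels were 46.5, 47.6 and 49.9 CPM in RPMI with vehicle, 2.06, 1.39 and 2.00 with quizartinib, 75.4, 69.04 and 74.7 in hBMSC-CM with vehicle and 18.9, 21.3 and 19.9 with quizartinib. All 12 libraries sorted into 4 groups that did not overlap, lowest in RPMI with quizartinib. The gene was 26.7-fold lower with the drug in RPMI, at a log2 fold change of -4.74 ± 0.0981 (SE, adjusted p = 5.64e-20), and 3.65-fold lower in hBMSC-CM, at -1.87 ± 0.0654 (SE, adjusted p = 2.25e-15). This was the largest difference between the media of any member, an interaction of 2.87 ± 0.130 (SE, adjusted p = 2.63e-13).

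SLC17A9, which loads ATP into secretory vesicles, lies at chr20:62952707-62969585 on the same chromosome. It had 61.6, 62.8 and 66.4 CPM in RPMI with vehicle, 7.80, 9.04 and 8.94 with quizartinib, 71.4, 67.2 and 74.9 in hBMSC-CM with vehicle and 47.5, 48.5 and 57.03 with quizartinib. The 3 libraries of RPMI with quizartinib stood far below the other 9, and the treated cells in hBMSC-CM were still below both vehicle groups. Its log2 fold change was -2.89 ± 0.0796 (SE, adjusted p = 4.04e-18) in RPMI and -0.48 ± 0.0644 (SE, adjusted p = 1.23e-06) in hBMSC-CM. SLC22A16, a carrier of carnitine and organic cations, went from 4.02 ± 0.442 to 0.920 ± 0.348 CPM (SD, n = 3) in RPMI, and from 5.76 ± 0.550 to 4.06 ± 0.375 in hBMSC-CM. The ergothioneine carrier SLC22A4 had a log2 fold change of -1.60 ± 0.107 (SE, adjusted p = 1.26e-11) in RPMI and -0.94 ± 0.0959 (SE, adjusted p = 2.86e-08) in hBMSC-CM.

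With TMM scaling, most zinc carriers fell. With quizartinib in RPMI, 11 of 16 fell and 3 rose, against 39.2% and 40.1% of all genes, with a median log2 fold change of -0.29, where the median over all 142 members outside SLC25 was 0.01. With library size alone 11 fell and 5 rose. In hBMSC-CM the counts were 10 lower and 2 higher, against 33.7% and 33.4% of all genes, or 6 and 4 with library size alone. SLC39A14 (ZIP14) brings zinc, manganese and free iron into the cell. It measured 66.9, 69.4 and 66.4 CPM in RPMI with vehicle, 6.09, 6.88 and 5.32 with quizartinib, 93.7, 94.5 and 99.1 in hBMSC-CM with vehicle and 41.4, 38.2 and 39.6 with quizartinib. Again the 4 groups did not overlap and RPMI with quizartinib was lowest. The fall was 10.9-fold in RPMI (-3.45 ± 0.0697 (SE, adjusted p = 3.76e-20) on the log2 scale) and 2.41-fold in hBMSC-CM (-1.27 ± 0.0540 (SE, adjusted p = 4.24e-14)).

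Its close relative SLC39A8 (ZIP8), an importer of zinc and manganese, fell, with a log2 fold change of -2.05 ± 0.0594 (SE, adjusted p = 8.67e-18) in RPMI and -0.77 ± 0.0524 (SE, adjusted p = 5.75e-11) in hBMSC-CM. SLC39A7, which releases zinc from the endoplasmic reticulum and has the highest level per length of the list (55.2 CPM per kilobase), fell with a log2 fold change of only -0.25 ± 0.0470 (SE, adjusted p = 5.57e-05) in RPMI. SLC39A9 and SLC39A10 were not called in RPMI, with log2 fold changes of 0.05 and 0.07. The large falls within the list were at the importers SLC39A14 and SLC39A8.

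The zinc exporter SLC30A1 went the other way. Its 12 values were 57.4, 60.5 and 57.7 CPM in RPMI with vehicle, 104, 101 and 98.4 with quizartinib, 55.3, 53.97 and 48.9 in hBMSC-CM with vehicle and 64.3, 65.01 and 63.4 with quizartinib. The 3 libraries of RPMI with quizartinib lay above all others, and those of hBMSC-CM with quizartinib above both vehicle groups. The log2 fold change was 0.79 ± 0.0475 (SE, adjusted p = 2.06e-12) in RPMI and 0.28 ± 0.0492 (SE, adjusted p = 3.74e-05) in hBMSC-CM. The metallothioneins MT1E, MT1X and MT2A, which bind zinc in the cytosol and share the metal response element with SLC30A1 as textbook targets of MTF1, rose in RPMI by log2 fold changes of 0.47, 0.56 and 0.80. In hBMSC-CM MT2A rose, at 0.58 ± 0.0706 (SE, adjusted p = 3.50e-07), and MT1E and MT1X were not called, at 0.04 ± 0.0520 (SE, adjusted p = 0.483) and 0.15 ± 0.0928 (SE, adjusted p = 0.147). MTF1 itself fell, with a log2 fold change of -0.31 ± 0.0750 (SE, adjusted p = 7.29e-04).

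Of the 7 genes for other metals and heme, 3 rose and 2 fell in RPMI, which is near the shares of all genes given above. The copper importer SLC31A1 fell, with a log2 fold change of -1.01 ± 0.0574 (SE, adjusted p = 7.17e-13) in RPMI and -0.63 ± 0.0547 (SE, adjusted p = 2.53e-09) in hBMSC-CM. SLC48A1, which exports heme from endolysosomes, read 12.7, 13.3 and 11.6 CPM in RPMI with vehicle, 31.7, 35.4 and 33.5 with quizartinib, 11.3, 10.2 and 9.73 in hBMSC-CM with vehicle and 16.96, 16.2 and 16.4 with quizartinib. RPMI with quizartinib was highest, and the drug raised the gene by a log2 fold change of 1.42 ± 0.0712 (SE, adjusted p = 8.94e-14) in RPMI and 0.66 ± 0.0797 (SE, adjusted p = 3.42e-07) in hBMSC-CM. SLC11A2 (DMT1), an iron importer, was not called in either medium, at -0.13 ± 0.0648 (SE, adjusted p = 0.0698) in RPMI and -0.04 ± 0.0642 (SE, adjusted p = 0.636) in hBMSC-CM. SLC11A1, the phagosomal metal carrier of myeloid cells, followed the medium: it averaged 0.428 ± 0.0453 and 0.546 ± 0.105 CPM in RPMI with vehicle and quizartinib, and 1.70 ± 0.257 and 3.20 ± 0.457 in hBMSC-CM. The difference of hBMSC-CM from RPMI was 1.96 ± 0.245 (SE) with vehicle. It led the members in that comparison, in which the medium where it is high also brought it over the limit of 1 CPM.

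Of the 6 genes of family SLC16, listed as monocarboxylate carriers by family number, 4 fell with the drug in each medium and 1 rose. Of all genes, 39.2% fell in RPMI and 33.7% in hBMSC-CM. In hBMSC-CM 3 fell with library size alone and with upper-quartile factors. SLC16A1 (MCT1), which carries lactate, pyruvate and ketone bodies together with a proton, lies at chr1:112911847-112957593. It counted 189, 189.5 and 186 CPM in RPMI with vehicle, 57.2, 62.3 and 59.98 with quizartinib, 242, 246 and 245 in hBMSC-CM with vehicle and 156, 147 and 144 with quizartinib. The 4 groups were fully separate. SLC16A1 fell 3.14-fold in RPMI, -1.65 ± 0.0443 (SE, adjusted p = 2.53e-18) on the log2 scale, and 1.64-fold in hBMSC-CM, -0.71 ± 0.0418 (SE, adjusted p = 5.33e-12).

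SLC16A3 (MCT4) exports lactate from glycolytic cells and had the highest level per length outside SLC25, 61.8 CPM per kilobase against 42.7 for SLC16A1. Its libraries gave 168, 164 and 157 CPM in RPMI with vehicle, 74.7, 82.7 and 86.1 with quizartinib, 231, 227 and 247 in hBMSC-CM with vehicle and 163, 149 and 177 with quizartinib. Treated cells in hBMSC-CM overlapped untreated cells in RPMI, while RPMI with quizartinib stayed below both. The log2 fold changes were -1.01 ± 0.0598 (SE, adjusted p = 1.60e-12) and -0.53 ± 0.0576 (SE, adjusted p = 7.62e-08) in the 2 media. SLC16A6 (MCT7), a ketone body carrier, was scarcer, with 7.45, 6.73 and 7.28 CPM in RPMI with vehicle, 0.660, 0.973 and 0.781 with quizartinib, 14.6, 14.1 and 13.6 in hBMSC-CM with vehicle and 6.87, 6.28 and 5.62 with quizartinib. It was 8.76-fold lower with quizartinib in RPMI and 2.24-fold lower in hBMSC-CM. With the drug, the 4 genes that fell (SLC16A1, SLC16A3, SLC16A6 and SLC16A10) were called higher in hBMSC-CM than in RPMI, where 35.5% of all genes were. This comparison uses the libraries in which they were found low. The summed level of the 6 genes went from 373 ± 5.99 to 159 ± 8.48 CPM (SD, n = 3) in RPMI and from 510.3 ± 11.2 to 336 ± 14.5 in hBMSC-CM. Of the partner proteins of monocarboxylate carriers, BSG (basigin) was not called in RPMI, at -0.04 ± 0.0446 (SE, adjusted p = 0.375), and EMB (embigin) rose by a log2 fold change of 0.55 ± 0.0456 (SE, adjusted p = 3.97e-10).

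**Figure D2:**
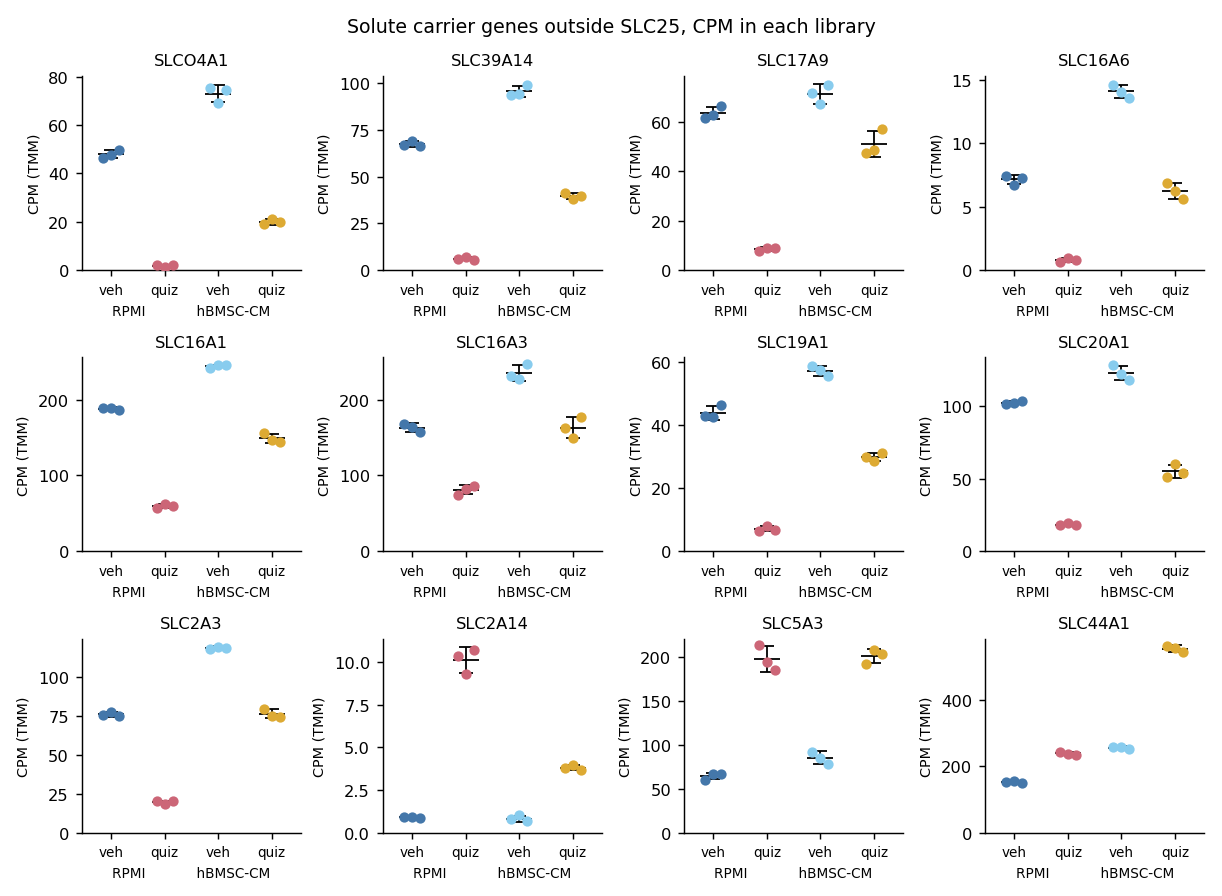
CPM (TMM-scaled, linear axis from 0) of 12 members outside SLC25 in each library, with vehicle (veh) and quizartinib (quiz) in each medium. Points are libraries, the black bar and whiskers are the mean and SD of 3. In 9 panels, SLCO4A1 to SLC2A3, the 3 libraries of RPMI with quizartinib are the lowest of the 12.

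The sugar list split. In RPMI with quizartinib, 12 of 19 genes rose and 6 fell, where 40.1% and 39.2% of all genes did. Of the 6 that were at least 2-fold higher, SLC2A6, SLC2A11 and SLC2A14 had the drug built into their choice, and 3 genes fell at least 2-fold, where 9.63% and 11.8% of all genes were that much higher and lower. SLC2A3 (GLUT3), a high-affinity glucose carrier, ran against the majority. Its values were 75.3, 77.5 and 74.7 CPM in RPMI with vehicle, 20.2, 18.6 and 20.1 with quizartinib, 118, 119 and 119 in hBMSC-CM with vehicle and 79.5, 74.7 and 74.4 with quizartinib. RPMI with quizartinib was lowest, and treated cells in hBMSC-CM covered the range of untreated cells in RPMI. SLC2A3 fell 3.87-fold in RPMI (-1.95 ± 0.0497 (SE, adjusted p = 1.17e-18)) and 1.55-fold in hBMSC-CM (-0.64 ± 0.0430 (SE, adjusted p = 5.40e-11)). SLC2A1 (GLUT1), the widespread basal glucose carrier, moved more with the medium than with the drug: 53.5, 48.3 and 50.8 CPM in RPMI with vehicle, 38.9, 40.3 and 40.3 with quizartinib, 82.5, 80.6 and 81.8 in hBMSC-CM with vehicle and 79.05, 78.3 and 79.1 with quizartinib. All 6 hBMSC-CM libraries exceeded all 6 RPMI libraries. The drug effect (log2) was -0.35 ± 0.0472 (SE, adjusted p = 6.85e-07) in RPMI and was not called in hBMSC-CM, at -0.05 ± 0.0440 (SE, adjusted p = 0.310), and the medium effect was 0.68 ± 0.0452 (SE, adjusted p = 3.42e-10) with vehicle and 0.98 ± 0.0462 (SE, adjusted p = 7.70e-14) with quizartinib.

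SLC2A14 (GLUT14) is a near copy of SLC2A3 on chromosome 12, the pair lying at chr12:7812512-7891148 and chr12:7919230-8019007, so reads may be split or dropped between them and both levels are uncertain. It was listed at 0.889, 0.939 and 0.830 CPM in RPMI with vehicle, 10.4, 9.28 and 10.7 with quizartinib, 0.792, 1.00 and 0.664 in hBMSC-CM with vehicle and 3.78, 3.95 and 3.66 with quizartinib. It was 11.3-fold higher with quizartinib in RPMI, 3.50 ± 0.139 (SE) on the log2 scale, and 4.65-fold higher in hBMSC-CM, 2.22 ± 0.171 (SE), with the drug libraries alone bringing it over the limit of 1 CPM. The fructose carrier SLC2A5 rose from 15.8 ± 0.881 to 39.2 ± 0.498 CPM in RPMI and from 34.9 ± 0.762 to 43.8 ± 1.45 in hBMSC-CM. SLC2A6, a lysosomal member of the family, was chosen through RPMI with quizartinib, where its log2 fold change was 1.85 ± 0.193 (SE), and was not called in hBMSC-CM, at 0.52 ± 0.270 (SE, adjusted p = 0.0974).

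SLC5A3 cotransports sodium and myo-inositol, an osmolyte and a precursor of phosphoinositides. It lay at 60.6, 66.7 and 66.99 CPM in RPMI with vehicle, 214, 195 and 185 with quizartinib, 92.4, 85.7 and 77.9 in hBMSC-CM with vehicle and 193, 208 and 203 with quizartinib. Both treated groups were above both vehicle groups and overlapped each other. The log2 increase was 1.61 ± 0.0620 (SE, adjusted p = 9.40e-16) in RPMI and 1.24 ± 0.0610 (SE, adjusted p = 3.90e-13) in hBMSC-CM. Its exon lies within the annotated span of MRPS6, whose reads the counting may not keep apart. SLC37A4, which brings glucose 6-phosphate into the endoplasmic reticulum, fell, with a log2 fold change of -1.79 ± 0.0761 (SE, adjusted p = 5.43e-15) and -1.24 ± 0.0695 (SE, adjusted p = 2.82e-12) in the 2 media. SLC5A6 stands in this list by family but carries biotin and pantothenate, and it fell, with a log2 fold change of -1.49 ± 0.0485 (SE, adjusted p = 5.98e-17) in RPMI and -0.81 ± 0.0459 (SE, adjusted p = 3.26e-12) in hBMSC-CM. TXNIP and ARRDC4, arrestins that remove glucose carriers from the cell surface, had log2 fold changes in RPMI of 1.82 and 2.09, although ARRDC4 passed the filter only through its high values there (0.797 CPM over the other 9 libraries).

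The phosphate carriers SLC20A1 and SLC20A2 both fell in RPMI. SLC20A1 (PiT1), at chr2:112645939-112663825, is the gene with an E-box in the first promoter printed above. Its levels stood at 102, 102 and 104 CPM in RPMI with vehicle, 17.96, 19.5 and 17.9 with quizartinib, 128, 122 and 118 in hBMSC-CM with vehicle and 51.2, 59.9 and 54.03 with quizartinib. The groups were fully separate, in the order RPMI with quizartinib, hBMSC-CM with quizartinib, RPMI with vehicle, hBMSC-CM with vehicle. SLC20A1 fell 5.54-fold in RPMI (-2.47 ± 0.0593 (SE, adjusted p = 4.90e-19)) and 2.24-fold in hBMSC-CM (-1.16 ± 0.0527 (SE, adjusted p = 1.09e-13)). SLC20A2 (PiT2) fell, with a log2 fold change of -0.42 ± 0.0496 (SE, adjusted p = 1.22e-07) in RPMI and was not called in hBMSC-CM (-0.03 ± 0.0485 (SE, adjusted p = 0.635)).

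All 8 genes for vitamins, choline and acetyl-CoA were called with quizartinib in both media, 5 higher and 3 lower in each, where 79.3% of all genes were called in RPMI and 67.1% in hBMSC-CM. SLC19A1, the reduced folate carrier, had 42.8, 42.4 and 46.3 CPM in RPMI with vehicle, 6.56, 8.13 and 6.89 with quizartinib, 58.6, 57.4 and 55.4 in hBMSC-CM with vehicle and 29.96, 28.7 and 31.1 with quizartinib. The 4 groups did not overlap. Its fall was 6.05-fold in RPMI (-2.60 ± 0.0739 (SE, adjusted p = 6.74e-18)) and 1.91-fold in hBMSC-CM (-0.94 ± 0.0606 (SE, adjusted p = 2.66e-11)). The thiamine carrier SLC19A2 fell from 12.1 ± 0.386 to 3.03 ± 0.438 CPM in RPMI and from 19.9 ± 0.339 to 10.1 ± 0.695 in hBMSC-CM, and the riboflavin carrier SLC52A2 from 65.7 ± 1.53 to 35.2 ± 2.23 and from 72.3 ± 2.11 to 45.9 ± 0.815.

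The choline carrier SLC44A1 behaved in another way, with 154, 155 and 151 CPM in RPMI with vehicle, 244, 239 and 234 with quizartinib, 258, 259.8 and 252 in hBMSC-CM with vehicle and 564, 557 and 545 with quizartinib. Drug and medium each raised it, and every library of hBMSC-CM with quizartinib was above every other library. The drug effect (log2) was 0.64 ± 0.0386 (SE, adjusted p = 1.99e-12) in RPMI and 1.11 ± 0.0381 (SE, adjusted p = 1.60e-15) in hBMSC-CM, and the difference was called, with an interaction of 0.47 ± 0.0539 (SE, adjusted p = 3.68e-07). Of the 73 members called higher in RPMI, 3 had an interaction called in the same direction (4.11%, against 1.65% of all genes called higher in RPMI): SLC44A1, SLC37A2 and SLC26A11, the last of which passed the limit of 1 CPM only through drug libraries. The call of SLC37A2 was lost without any of 5 libraries (RPMI vehicle replicates 1 and 2, RPMI quizartinib replicates 1 and 3, hBMSC-CM vehicle replicate 2).

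Of 5 fatty acid carriers, 2 were lower and 2 higher in RPMI, as near as 5 genes can come to the shares of all genes. All of these changed at least 2-fold, where 9.63% of all genes were that much higher and 11.8% that much lower. SLC27A2 (FATP2), an acyl-CoA synthetase that takes up long-chain fatty acids, showed 71.9, 73.3 and 73.5 CPM in RPMI with vehicle, 29.3, 26.9 and 27.01 with quizartinib, 99.9, 95.4 and 102 in hBMSC-CM with vehicle and 75.9, 75.2 and 73.9 with quizartinib. Treated cells in hBMSC-CM were close to untreated cells in RPMI. The log2 fold change was -1.39 ± 0.0480 (SE, adjusted p = 1.54e-16) in RPMI and -0.40 ± 0.0437 (SE, adjusted p = 7.06e-08) in hBMSC-CM. SLC27A4 fell, with a log2 fold change of -1.52 ± 0.0546 (SE, adjusted p = 3.01e-16) and -0.71 ± 0.0506 (SE, adjusted p = 1.16e-10), while SLC27A3 rose by a log2 fold change of 1.34 ± 0.0975 (SE, adjusted p = 5.23e-11) and 0.52 ± 0.127 (SE, adjusted p = 0.00121).

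The 27 genes listed by family for chloride, bicarbonate, protons, sodium and calcium include SLC4A1AP, SLC9A3R1 and SLC9A7P1, which name no carrier. In RPMI 16 of the 27 rose and 8 fell, where 40.1% and 39.2% of all genes did. In hBMSC-CM the counts were 11 and 6, against 33.4% and 33.7% of all genes, or 15 and 5 with library size alone and 10 and 7 with DESeq2 size factors. SLC4A3 (AE3) exchanges chloride for bicarbonate. It gave 11.1, 12.4 and 14.1 CPM in RPMI with vehicle, 38.1, 39.9 and 39.3 with quizartinib, 7.72, 7.91 and 7.92 in hBMSC-CM with vehicle and 24.8, 23.1 and 24.4 with quizartinib. The treated libraries exceeded the untreated ones in each medium, and hBMSC-CM was below RPMI in each treatment. The log2 increases were of like size, 1.65 ± 0.0702 (SE, adjusted p = 5.25e-15) in RPMI and 1.62 ± 0.0799 (SE, adjusted p = 3.89e-13) in hBMSC-CM, and the interaction was -0.03 ± 0.110 (SE, adjusted p = 0.844). SLC4A8, a sodium-driven chloride-bicarbonate exchanger whose span overlaps GALNT6, rose by a log2 fold change of 1.52 ± 0.0797 (SE, adjusted p = 1.90e-13) in RPMI and 1.20 ± 0.0916 (SE, adjusted p = 3.33e-10) in hBMSC-CM, and SLC9C2 by 1.55 ± 0.168 (SE, adjusted p = 2.95e-08) in RPMI. SLC4A7, which brings sodium and bicarbonate into the cell, fell from 115 ± 5.97 to 42.9 ± 1.83 CPM in RPMI and from 157 ± 3.81 to 115 ± 3.39 in hBMSC-CM. SLC26A11, an anion exchanger that reached the limit of 1 CPM only through the drug libraries, had log2 fold changes of 0.67 ± 0.200 (SE) in RPMI and 1.92 ± 0.256 (SE) in hBMSC-CM, where untreated cells averaged 0.493 ± 0.112 CPM.

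The SLC35 genes, listed as nucleotide sugar carriers by family number, were called about as often as all genes (40.1% higher and 39.2% lower in RPMI). There 9 of 20 fell and 7 rose (9 and 9 with library size alone), and 2 in each direction changed at least 2-fold, as did 9.63% and 11.8% of all genes, upwards and downwards. SLC35B2, which brings the sulfate donor PAPS into the Golgi, fell, with a log2 fold change of -0.67 ± 0.0602 (SE, adjusted p = 1.51e-09) in RPMI and -0.41 ± 0.0589 (SE, adjusted p = 3.00e-06) in hBMSC-CM. SLC35G1 fell, with a log2 fold change of -1.24 ± 0.104 (SE, adjusted p = 5.37e-10) and -0.46 ± 0.0931 (SE, adjusted p = 1.88e-04). SLC35E2A, the highest of the list per length, rose by a log2 fold change of 1.37 ± 0.0555 (SE, adjusted p = 2.42e-15) and 1.16 ± 0.0592 (SE, adjusted p = 6.35e-13), and is uncertain because it has a near copy, SLC35E2B.

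The 20 members with a family number of amino acid and peptide carriers include SLC7A6OS and SLC7A5P1, which are no carriers. Of the 20, 8 fell and 10 rose in RPMI, against 39.2% and 40.1% of all genes. The deepest fall was at SLC43A3, which is placed there by family although it is known to carry purine nucleobases. It counted 99.4, 101 and 101 CPM in RPMI with vehicle, 15.8, 16.2 and 16.4 with quizartinib, 106, 109 and 106 in hBMSC-CM with vehicle and 53.9, 52.3 and 50.6 with quizartinib. The medium effect in untreated cells was not called, at 0.09 ± 0.0400 (SE, adjusted p = 0.0892), and the treated groups were separate from them and from each other. The log2 fold change was -2.64 ± 0.0476 (SE, adjusted p = 8.99e-21) in RPMI and -1.03 ± 0.0418 (SE, adjusted p = 2.13e-14) in hBMSC-CM. The glutamine and serine carrier SLC38A5, at chrX:48458537-48470260 and also printed above for its E-box, fell, with a log2 fold change of -2.42 ± 0.0793 (SE, adjusted p = 6.74e-17) and -1.06 ± 0.0688 (SE, adjusted p = 2.54e-11). The glutamate and aspartate carrier SLC1A3 was at 4.75 ± 0.609 and 1.07 ± 0.375 CPM in RPMI with vehicle and quizartinib, and SLC43A2, a carrier of large neutral amino acids, rose from 45.04 ± 0.770 to 112 ± 8.57. SLC38A10, the highest of the list per length, rose by a log2 fold change of 0.45 ± 0.0548 (SE, adjusted p = 1.89e-07) in RPMI. Of the 2 members of the nucleoside family, SLC29A4, which carries monoamines, was not called in RPMI, at 0.03 ± 0.213 (SE, adjusted p = 0.913). The lysosomal nucleoside carrier SLC29A3 rose from 8.83 ± 0.605 to 25.1 ± 1.60 CPM in RPMI and from 8.82 ± 0.534 to 12.4 ± 0.277 in hBMSC-CM.

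With TMM scaling, the 38 SLC25 genes, listed as mitochondrial by family number, moved more often down than up with the drug. In RPMI 20 fell and 9 rose, against 39.2% and 40.1% of all genes, with a median log2 fold change of -0.17, and 6 and 3 moved at least 2-fold, near the 11.8% and 9.63% of all genes. In hBMSC-CM 16 fell and 7 rose, against 33.7% and 33.4% of all genes, none at least 2-fold, against 2.03% lower and 4.86% higher. With library size alone these counts became 17 lower and 14 higher in RPMI and 13 of each in hBMSC-CM, so the balance of directions depends on the scaling there. The median in RPMI was -0.08 with library size alone and -0.07 with upper-quartile factors. The share of counts from genes of the mitochondrial genome moved as well, from between 0.683% and 0.790% to between 1.02% and 1.10% in RPMI, and from between 0.458% and 0.613% to between 0.683% and 0.947% in hBMSC-CM, and its part in these results was not tested. The summed level of the 38 genes went from 2850.1 ± 23.5 to 2722 ± 64.9 CPM in hBMSC-CM. In RPMI it hardly moved, at 2843 ± 49.2 and 2776 ± 96.1 CPM, but its parts did. In RPMI the sum of SLC25A3, SLC25A5 and SLC25A6 went from 1639 ± 44.1 to 1788 ± 99.9 CPM, and that of the other 35 from 1204 ± 6.07 to 988 ± 4.91. In hBMSC-CM the 3 went from 1589.9 ± 33.01 to 1569 ± 60.2 CPM and the other 35 from 1260.2 ± 10.8 to 1153 ± 14.5.

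The abundant carriers exchange ADP for ATP or import phosphate. Per kilobase of annotated transcript, SLC25A6 had the highest mean level of all 180 members, 546 CPM, followed by SLC25A5 with 295 and the phosphate carrier SLC25A3 with 78.4. Both nucleotide exchangers have many processed pseudogenes, so some of their reads may be placed elsewhere, and the annotated transcript of SLC25A3 used for its length is 5984 bases against 1307 for SLC25A5. SLC25A6 read 777, 722 and 756 CPM in RPMI with vehicle, 853, 979 and 1014 with quizartinib, 728, 706 and 676 in hBMSC-CM with vehicle and 761, 704 and 832 with quizartinib. Its log2 increase in RPMI was 0.34 ± 0.0624 (SE, adjusted p = 5.21e-05), and it was not called in hBMSC-CM, where the groups overlapped. SLC25A5 went down, with 433, 388 and 429 CPM in RPMI with vehicle, 353, 349.9 and 357 with quizartinib, 429, 440.3 and 411 in hBMSC-CM with vehicle and 355, 339.7 and 338 with quizartinib. Its log2 fold change was -0.24 ± 0.0456 (SE, adjusted p = 7.44e-05) in RPMI and -0.31 ± 0.0456 (SE, adjusted p = 4.87e-06) in hBMSC-CM. The third exchanger, SLC25A4, averaged 8.11 ± 0.989 CPM in untreated RPMI and fell, with a log2 fold change of -0.44 ± 0.107 (SE, adjusted p = 8.14e-04). SLC25A3 was not called in any of the comparisons with TMM scaling, at 0.05 ± 0.0406 (SE, adjusted p = 0.306) in RPMI. The citrate carrier SLC25A1 was not called in RPMI either, at -0.09 ± 0.0536 (SE, adjusted p = 0.141).

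The largest fall was at SLC25A15, the ornithine carrier of the urea and polyamine pathways. Its levels were 49.3, 50.03 and 49.2 CPM in RPMI with vehicle, 13.4, 13.5 and 12.6 with quizartinib, 61.7, 65.4 and 70.99 in hBMSC-CM with vehicle and 39.6, 42.7 and 38.7 with quizartinib. The 4 groups were separate, with RPMI and quizartinib lowest. SLC25A15 fell 3.75-fold in RPMI (-1.91 ± 0.0644 (SE, adjusted p = 1.09e-16)) and 1.64-fold in hBMSC-CM (-0.71 ± 0.0564 (SE, adjusted p = 6.41e-10)). The pyrimidine nucleotide carrier SLC25A33, printed above for its E-box, fell, with a log2 fold change of -1.46 ± 0.104 (SE, adjusted p = 3.25e-11) and -0.63 ± 0.0935 (SE, adjusted p = 5.14e-06), and the folate carrier SLC25A32 by -1.05 ± 0.182 (SE, adjusted p = 2.21e-05) and -0.78 ± 0.157 (SE, adjusted p = 1.77e-04).

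SLC25A37, mitoferrin 1, which imports iron for heme synthesis, was the single member called in opposite directions (0.556% of members, where 0.839% of all genes went lower in RPMI and higher in hBMSC-CM and 0.469% the reverse), with 95.1, 97.9 and 102 CPM in RPMI with vehicle, 90.01, 81.9 and 80.4 with quizartinib, 101, 97.7 and 103 in hBMSC-CM with vehicle and 119, 121 and 122 with quizartinib. It fell, with a log2 fold change of -0.22 ± 0.0460 (SE, adjusted p = 1.78e-04) in RPMI and rose by a log2 fold change of 0.26 ± 0.0455 (SE, adjusted p = 4.11e-05) in hBMSC-CM. The carnitine and acylcarnitine exchanger SLC25A20, which admits fatty acids for oxidation, rose in both media, with 12.7, 12.4 and 12.3 CPM in RPMI with vehicle, 30.5, 30.3 and 31.3 with quizartinib, 9.07, 9.56 and 10.2 in hBMSC-CM with vehicle and 16.9, 16.2 and 17.7 with quizartinib. Its log2 increases were 1.30 ± 0.0637 (SE, adjusted p = 5.98e-14) in RPMI and 0.82 ± 0.0715 (SE, adjusted p = 2.55e-09) in hBMSC-CM.

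**Figure D3:**
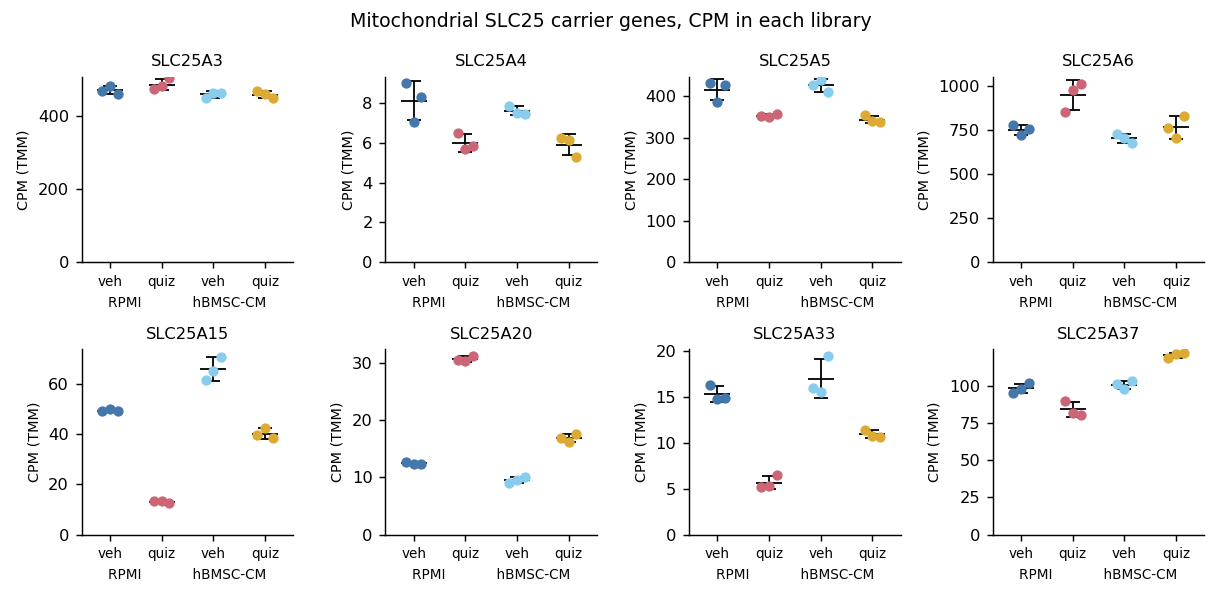
CPM (TMM-scaled, linear axis from 0) of 8 mitochondrial SLC25 genes in each library, with vehicle (veh) and quizartinib (quiz) in each medium. Points are libraries, the black bar and whiskers are the mean and SD of 3. SLC25A15 and SLC25A33 are lowest in RPMI with quizartinib, SLC25A20 is highest there, and SLC25A3 lies between 449.8 and 504 CPM in all 12 libraries.

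In hBMSC-CM, quizartinib called fewer members and moved them less. Higher were 53 of 180, against 33.4% of all genes, and lower were 71, against 33.7%. With library size alone in place of TMM, 56.1% of the called members were higher, in place of 42.7%. At least 2-fold higher were 8 (SLC2A11, SLC2A14 and SLC26A11 among them) and lower 7, against 4.86% and 2.03% of all genes. The 7 that fell this far included SLCO4A1, SLC39A14, SLC37A4, SLC16A6 and SLC20A1. The comparisons in the 2 media share no library. Of the members, 49 were higher in both and 67 lower in both, 24 were higher and 12 lower in RPMI alone, and 20 were called in neither. These are 27.2%, 37.2%, 13.3%, 6.67% and 11.1% of the members, where all genes gave 29.2%, 30.1%, 10.46%, 8.24% and 14.2%. The fold changes followed one another across the 180 genes, with a Pearson r of 0.893 and a slope of 0.462, while over all 12998 genes r was 0.863 and the slope 0.529. Genes are not independent replicates, and no p is given. The change was smaller in size in hBMSC-CM for 156 of 180 members and for 9984 of all 12998 genes. Among those lowered in RPMI, the median share of the log2 fold change kept in hBMSC-CM was 0.467, and among those raised 0.543, against 0.493 and 0.594 over all genes.

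**Figure D4:**
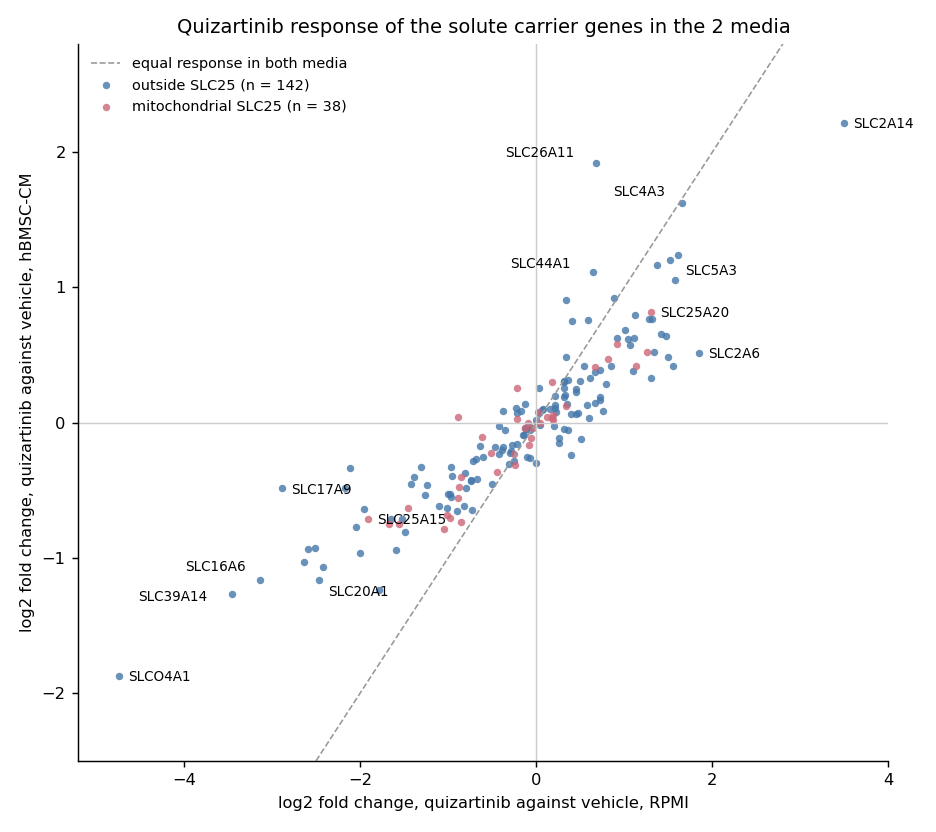
Log2 fold change with quizartinib in RPMI (horizontal) against hBMSC-CM (vertical) for each of the 180 members, SLC25 genes in red, with a dashed line where both would be equal. Most points lie nearer to the horizontal axis than the dashed line does, with SLCO4A1 at the lower left and SLC2A14 at the upper right. SLC44A1 and SLC26A11, raised more in hBMSC-CM, lie above the line, as does every member lowered less there.

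The medium itself raised these genes more often than it lowered them. Without drug, 64 members were higher in hBMSC-CM, against 16.6% of all genes, and 17 were lower, against 15.5%. With quizartinib, 88 were higher and 50 lower, against 35.5% and 34.3%. Changes of at least 2-fold under the drug went up in 26 members and down in 7, against 7.15% and 2.72% of all genes, and the 7 were 4 without the filter on low counts and with filterByExpr. SLC11A1 is among the 26 and SLC2A6 and SLC2A14 are among the 7, with these differences built into their choice. This comparison uses the libraries of RPMI with quizartinib that also enter the drug comparison in RPMI, so the values stand side by side and are not separate evidence. Zinc carriers were higher in 12 of 16 cases with the drug and in 9 without it. Of the 38 SLC25 genes, 17 were higher and 9 lower with the drug, or 15 and 12 with upper-quartile factors, and 8 were higher and 2 lower without it. Without drug the largest increases after SLC11A1 were at SLC2A5, 1.14 ± 0.0582 (SE, adjusted p = 7.12e-12), and SLC16A6, 0.98 ± 0.0923 (SE, adjusted p = 7.79e-08), apart from the pseudogene SLC9A7P1. The largest decreases were at SLC26A11, -1.36 ± 0.276 (SE, adjusted p = 7.27e-04), SLC27A3, -0.74 ± 0.123 (SE, adjusted p = 1.10e-04), SLC12A8, -0.68 ± 0.191 (SE, adjusted p = 0.00982), SLC4A3, -0.66 ± 0.0864 (SE, adjusted p = 6.15e-06), and SLC37A1, -0.62 ± 0.0916 (SE, adjusted p = 2.67e-05). With the drug, SLC25A42, the coenzyme A importer of mitochondria, was lower in hBMSC-CM, at -1.16 ± 0.114 (SE, adjusted p = 1.26e-08).

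The test of the difference between the drug responses, the interaction, called 64 members higher and 42 lower, against 26.1% and 19.2% of all genes. A positive value means that quizartinib lowered the gene less, or raised it more, in hBMSC-CM than in RPMI. SLCO4A1, SLC17A9, SLC39A14, SLC16A6 and SLC1A3 had the largest positive values, the last being 1.78 ± 0.240 (SE, adjusted p = 3.62e-06). SLC2A6, SLC2A14, SLC9C2, SLC29A3 and SLC2A5 were the 5 most negative, at -1.33, -1.28, -1.13, -1.01 and -0.98, of which SLC2A6 and SLC2A14 passed the limit of 1 CPM only through drug libraries, with the highest values in RPMI with quizartinib. Among SLC25 genes 14 were positive and 3 negative.

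**Figure D5:**
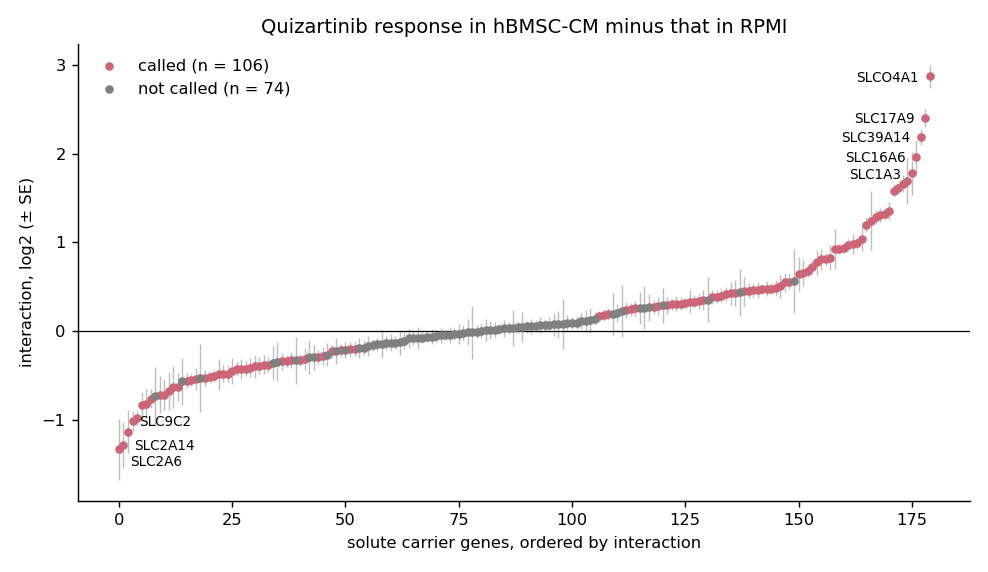
Interaction (log2 fold change with quizartinib in hBMSC-CM minus that in RPMI, with its SE) of the 180 members in ascending order, called genes in red. The 64 called positive values reach 2.87 at SLCO4A1, and the 42 called negative values reach -1.33 at SLC2A6.

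Carriers and partners whose symbols do not start with SLC were read from a list of 36 genes, of which 35 passed the filter. With quizartinib in RPMI, 12 rose and 18 fell, with a median log2 fold change of -0.20, where 40.1% of all genes rose and 39.2% fell. In hBMSC-CM 9 rose and 18 fell, against 33.4% and 33.7% of all genes. The sideroflexins SFXN1, SFXN2 and SFXN4 of the inner mitochondrial membrane, of which SFXN1 imports serine, fell in RPMI with log2 fold changes of -2.05 ± 0.0471 (SE, adjusted p = 2.55e-19), -2.26 ± 0.0979 (SE, adjusted p = 7.08e-15) and -1.77 ± 0.0574 (SE, adjusted p = 5.46e-17), and SFXN3 rose by a log2 fold change of 0.49 ± 0.0408 (SE, adjusted p = 4.16e-10). Of the pyruvate carrier subunits, MPC1 fell, with a log2 fold change of -0.71 ± 0.0622 (SE, adjusted p = 9.73e-10) and MPC2 rose by a log2 fold change of 0.46 ± 0.0594 (SE, adjusted p = 4.49e-07). The pores of the outer mitochondrial membrane VDAC1, VDAC2 and VDAC3 fell with log2 fold changes of -1.04, -0.48 and -0.42. The phosphate exporter XPR1, which opposes SLC20A1, was not called, at 0.07 ± 0.0484 (SE, adjusted p = 0.179), and the lysolipid carrier MFSD2A fell, with a log2 fold change of -2.36 ± 0.0699 (SE, adjusted p = 1.29e-17).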

How the data were processed

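RNA-seq of poly-A RNA was analysed in 12 MOLM-13 libraries, 4 groups of 3. The authors deposited raw read counts per gene symbol, not normalized. Per the submitters' processing notes and the study's methods, reads were aligned to hg38 with STAR 2.6.0a and the counts tested with limma; the strand setting of the counting is not given in the sources used here, so genes that overlap a neighbour are uncertain. Library totals ran from 19966546 to 31546104 counts, and floors of 3 counts cover counting error only.

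Genes with a mean count and a mean CPM of at least 1 (12998) were fitted in one model with edgeR 4.0.16 (R 4.3.3), TMM factors and the quasi-likelihood test, two-sided, with Benjamini-Hochberg adjustment over all of them and a threshold of 0.05. A standard error is the log2 fold change over the root of its F statistic. The model was also run on simulated data, and that result is not reported here. Alternatives were DESeq2 1.42.0, limma 3.58.1 (voom), other scalings and filters, a replicate block, and each library left out. Positions and transcript lengths came from GENCODE v44 (GRCh38, a later release than the study used) and promoters from RefSeq. A search of SLC25 proteins for their signature was not done here.

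Members and role lists (by family number) were chosen with earlier results of these data known. Genes are named where they were among the 5 largest increases or decreases of a comparison with groups that do not overlap, among the 2 most abundant per length or of largest interaction in a role list, or on a fixed list, of which 1 gene is not reported here. SLC39A8, SLC22A4, SLC22A16, SLC19A2, SLC4A7 and SLC25A20 were named after their values were seen.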

Additional observations from a re-analysis of the deposited data

Results flagged for a closer look

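By the interaction test, the quizartinib response differed between hBMSC-CM and RPMI in 106 of 180 members, against 45.2% of all genes. The interaction was called higher in 64 and lower in 42. The members below are a part of these. Each value is the log2 fold change in hBMSC-CM minus that in RPMI, and the report gives the values by library. SLC2A6, SLC2A14 and SLC26A11 passed the limit of 1 CPM only through quizartinib libraries, so their values are a description.

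Among organic anion and cation carriers, the value was positive for SLCO4A1 (2.87), SLC17A9 (2.4), SLC22A16 (1.69) and SLC22A4 (0.657). Among zinc carriers, the value was positive for SLC39A14 (2.19) and SLC39A8 (1.28) and negative for SLC30A1 (-0.504). Among carriers of other metals and heme, the value was positive for SLC31A1 (0.383) and negative for SLC48A1 (-0.76). Among monocarboxylate carriers, the value was positive for SLC16A6 (1.97), SLC16A1 (0.936) and SLC16A3 (0.479). Among the sugar families, the value was positive for SLC2A3 (1.32), SLC5A6 (0.68), SLC37A4 (0.549), SLC2A1 (0.302) and SLC37A2 (0.169) and negative for SLC5A3 (-0.377), SLC37A1 (-0.396), SLC2A5 (-0.98), SLC2A14 (-1.28) and SLC2A6 (-1.33). Among phosphate carriers, the value was positive for SLC20A1 (1.31) and SLC20A2 (0.391). Among carriers of vitamins and choline, the value was positive for SLC19A1 (1.66), SLC19A2 (1.04), SLC44A1 (0.472) and SLC52A2 (0.248). Among fatty acid carriers, the value was positive for SLC27A2 (0.99) and SLC27A4 (0.811) and negative for SLC27A3 (-0.816). Among ion carriers, the value was positive for SLC26A11 (1.25) and SLC4A7 (0.975) and negative for SLC4A8 (-0.316) and SLC9C2 (-1.13). Among nucleotide sugar carriers, the value was positive for SLC35G1 (0.775) and SLC35B2 (0.259) and negative for SLC35E2A (-0.204). Among the amino acid families, the value was positive for SLC1A3 (1.78), SLC43A3 (1.61) and SLC38A5 (1.35) and negative for SLC38A10 (-0.198) and SLC43A2 (-0.548). Among nucleoside carriers, the value was negative for SLC29A3 (-1.01). Among mitochondrial carriers, the value was positive for SLC25A15 (1.2), SLC25A33 (0.829) and SLC25A37 (0.48) and negative for SLC25A20 (-0.477) and SLC25A42 (-0.714). The calls of SLC35B2, SLC37A2, SLC35E2A and SLC4A8 were lost when single libraries were left out (RPMI vehicle replicate 1 among them for each), as was that of SLC38A10 (RPMI vehicle replicate 2 among them).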

How the results depend on the processing

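No member called in both a main and an alternative fit changed direction, in any comparison. The counts of members called in each direction stayed within 1.5 times their main value under every alternative, and with 1 library left out between 0 and 12 calls of a comparison were lost and between 0 and 6 gained. With 1 library left out, the members called higher and lower in RPMI with quizartinib ranged from 69 to 73 and from 78 to 81, in hBMSC-CM from 45 to 54 and from 64 to 72, and for the interaction from 57 to 63 and from 36 to 44. Small medians did not hold. The members' median log2 fold change with quizartinib, -0.07 in RPMI and -0.03 in hBMSC-CM, was 0.0167 and 0.0785 with library size alone and 0.0295 and 0.0568 with upper-quartile factors, which themselves moved the median of all genes by between 0.08 and 0.10. Without a filter on low counts it was -0.17 in RPMI, and 0.21 in place of 0.14 for hBMSC-CM against RPMI with quizartinib, while the median of all genes moved by -0.10 and 0.08. With upper-quartile factors 53.5% of the members called in hBMSC-CM were higher, in place of 42.7%. SLC25A3, not called in hBMSC-CM, had a log2 fold change of 0.10 with library size alone, in place of a value just below 0. For treated cells, the members at least 2-fold below RPMI in the conditioned medium were 4 without the filter and 4 with filterByExpr, in place of 7. With a minimum mean CPM of 5, which leaves 152 members, those at least 2-fold higher with quizartinib in hBMSC-CM were 5 in place of 8, those at least 2-fold higher and lower in hBMSC-CM with vehicle were 1 and 0 in place of 3 and 1, and those with an interaction of at least 2-fold downwards were 1 in place of 4. At an adjusted p under 0.01, 2692 genes of the whole table were called for hBMSC-CM against RPMI with vehicle, in place of 4174. Leaving out the 6 symbols that name no carrier, an alternative chosen after the data were seen, gave 70 higher and 77 lower in RPMI. The cause of these shifts was not tested.

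Replicate numbers did not pair the libraries: over 18 pairs with the same number in different groups, the correlation of deviations ran from -0.227 to 0.0979, and 0 of 12 libraries correlated best with their own number. The fit with a replicate block called 72 members higher and 80 lower in RPMI, and 52 and 71 in hBMSC-CM. Depth limits genes near 1 CPM, such as SLC26A11, SLC2A11 and SLC11A1, where 3 counts are between 0.0951 and 0.150 CPM.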
